A study of Sorghum bicolor with 12 samples.

Results

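A set of 7 transcripts of flavonoid metabolism and O-methylation was followed here in sorghum (Sorghum bicolor) leaf meristem: the leucoanthocyanidin reductase (LAR) Sb06g029520.1, the chalcone synthases (CHS) Sb02g009850.1 and Sb05g020220.1, the dihydroflavonol-4-reductases (DFR) Sb10g027560.1, Sb02g028590.1 and Sb03g028880.1, and the O-methyltransferase ZRP4 Sb03g005860.1. They were taken by their IDs, 7 of 27989 transcripts, from the study's own table of annotated genes, and that table had been chosen by the drought contrasts of these same samples. Drought differences of the 7 are therefore given as a description, with no test. RNA came from pot-grown plants, 1 plant per pot, harvested at 42 days in 4 groups of 3 biological replicates, 12 libraries in all. The groups were the drought-sensitive genotype IS20351 and the drought-tolerant genotype IS22330, each well watered (WW, near 0.7 of the transpirable soil water) or drought stressed (DS, held at 0.2 of that water for 9 days). Both genotypes are of the durra race, and each stands for its genotype alone. Since bulk tissue was sequenced, fewer cells that express a transcript and less RNA per cell cannot be told apart.

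Flavonoids are built from a phenylpropanoid precursor. CHS makes the chalcone from which all flavonoids descend, DFR reduces dihydroflavonols to leucoanthocyanidins, and LAR turns these into the flavanols that polymerise to proanthocyanidins, the condensed tannins. Flavonoids act as antioxidants and light screens in leaves, and sorghum is known for its flavonoid pigments and for grain tannins. O-methyltransferases add methyl groups to phenolic compounds, and ZRP4 is named after a maize enzyme first described in roots.

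Levels are given in RPKM, unique reads scaled to transcript length and to the reads of the library, so that they can be compared between genes. The replicates of a group carry no number in the deposited values. Within each group they are named library a, b and c from the smallest to the largest total, and a letter links no plants across groups. The libraries held 26398759 to 28680141 reads on transcripts. A filter of at least 1 RPKM in at least 3 libraries left 19021 transcripts, and 4 of the 7 passed it. Sb02g009850.1 passed with 3 libraries at 1 RPKM or above, all DS libraries of IS20351, and Sb02g028590.1 missed it with 2. Sb05g020220.1 and Sb03g028880.1 reached 1 RPKM in 1 library each. Ratios of these last 3 come from a fit with a minimum of 0.1 RPKM, which covered 24324 transcripts.

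One library stood apart from its group. IS22330 DS library c had the RuBisCO small chain (Sb05g003480.1) at 1450 RPKM, against 179 and 182 in DS libraries a and b and 642 to 1293 in the WW libraries of IS22330. The chlorophyll a-b binding proteins Sb03g027040.1 and Sb03g027030.1 were at 192 and 57.5 RPKM in that library, at 14.6 to 20.4 and 0.162 to 0.406 in DS libraries a and b, and at 32.5 to 123 and 1.18 to 20.1 in WW plants. All 3 leaf markers were thus higher in DS library c than in any WW library of IS22330, and each drought ratio of IS22330 is given with and without it. In IS20351 the RuBisCO small chain was at 1614 to 1804 RPKM in WW and 171 to 623 RPKM in DS libraries, without overlap.

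By the mean of the 12 libraries LAR was the most abundant of the 6 flavonoid transcripts and had the widest range, although in WW plants the DFR Sb10g027560.1 had the higher mean in both genotypes (1.45 against 0.677 RPKM in IS20351 and 2.34 against 1.62 RPKM in IS22330). In IS20351 it was at 0.321, 0.859 and 0.849 RPKM in WW libraries a, b and c, and under drought at 39.6, 44.3 and 40.1 RPKM in the same order. IS22330 had LAR at 0.486, 3.60 and 0.783 RPKM when well watered, and at 25.0, 22.2 and 0.725 RPKM under drought. The DS libraries of IS20351 lay far above its WW libraries and close to each other, whereas in IS22330 libraries a and b were high and library c lay within the WW range. These levels rest on 945 to 1087 reads per DS library of IS20351 and on 8 to 22 reads per WW library.

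By mean level the order was IS20351 DS (41.4 ± 2.55 RPKM, SD, n = 3), IS22330 DS (16.0 ± 13.3), IS22330 WW (1.62 ± 1.72) and IS20351 WW (0.677 ± 0.308). The DS groups did not overlap, the lowest IS20351 DS library being at 39.6 and the highest IS22330 DS library at 25.0 RPKM. The 2 groups of IS22330 overlapped through DS library c, without which the mean of IS22330 DS was 23.6 RPKM (n = 2), and the WW groups overlapped. The log2 ratio of DS to WW plants was 5.82 (SE 1.15) in IS20351 and 3.21 (SE 1.02) in IS22330, or 3.77 (SE 0.71) without DS library c. The ratio in IS22330 ranged from 2.69 without DS library a to 4.65 without WW library b. Of the 19021 transcripts 20 had a higher ratio in IS20351 and 90 in IS22330.

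**Figure D1:**
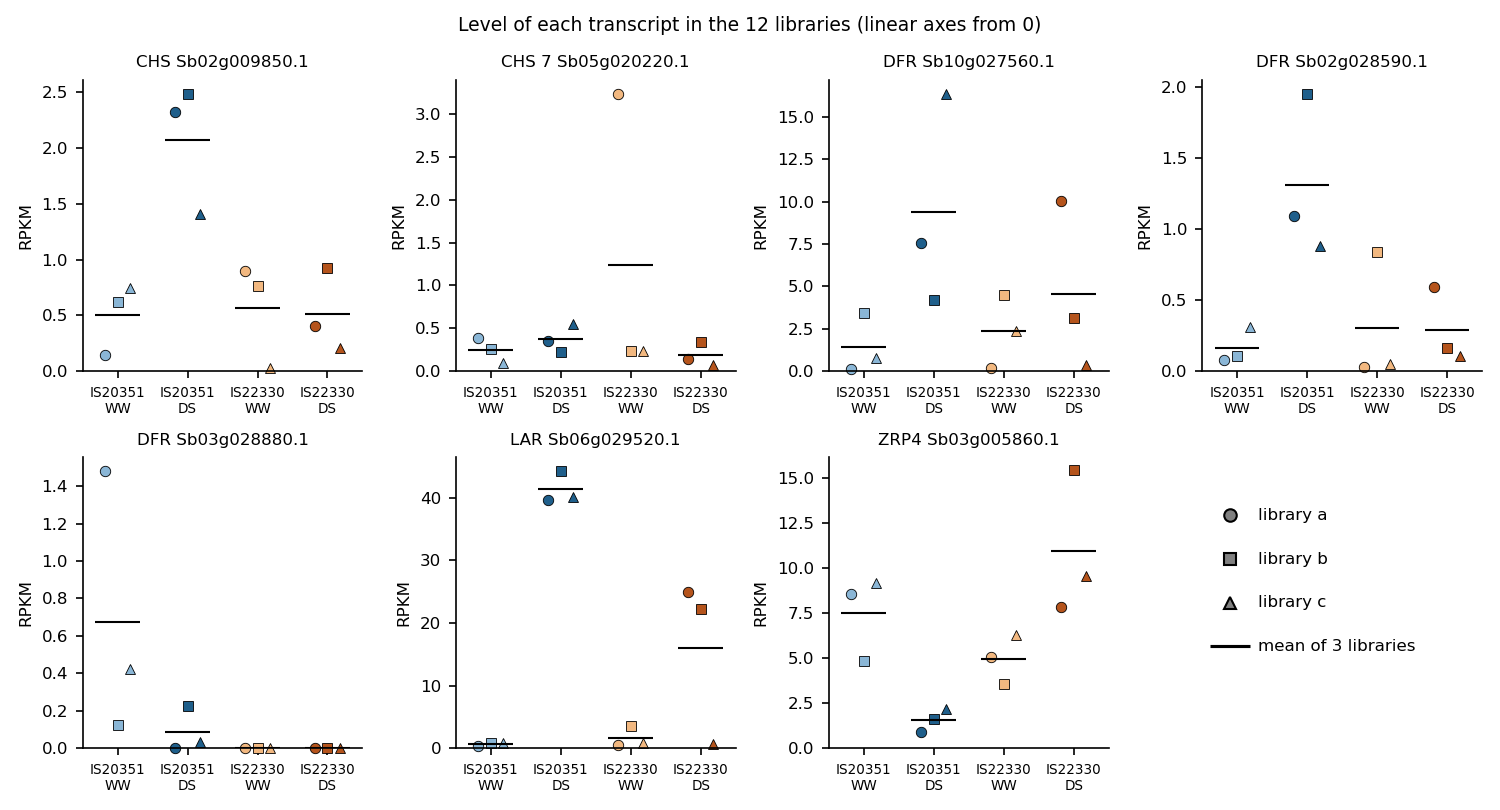
Level in RPKM (linear axes from 0) of each of the 7 transcripts in the 12 libraries, by group; symbols mark libraries a, b and c and lines the mean of 3 libraries. LAR is at 39.6 to 44.3 RPKM in the DS libraries of IS20351 and at 25.0, 22.2 and 0.725 RPKM in those of IS22330, and ZRP4 moves in opposite directions in the genotypes.

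LAR tended to be low in libraries where the chlorophyll a-b binding proteins were high, also within groups. The RuBisCO small chain did not follow this in IS20351. There WW library b had the highest WW level of both it and LAR (1804 and 0.859 RPKM). DS library a had the lowest DS level of both (171 and 39.6 RPKM). In WW plants of IS22330, library b had the highest LAR (3.60 RPKM) and the lowest Sb03g027030.1 (1.18 RPKM). After the mean of each group was subtracted, the correlation of log2(RPKM + 0.1) of LAR with Sb03g027030.1 over the 12 libraries was −0.98, and −0.91 without DS library c. It was −0.94 and −0.78 for Sb03g027040.1, and −0.85 and −0.41 for the RuBisCO small chain. Without the subtraction r over the 12 libraries was −0.67, −0.90 and −0.90 in the same order of markers. The points share library and depth, and the correlations are descriptions. Whether the markers had a part in the LAR levels was not tested. LAR also had many transcripts with a like pattern: 390 tested transcripts had a Pearson r above 0.9 with it over the 12 libraries on this scale, and 285 had an r below −0.9. The closest were Sb01g050610.1 (r = 0.99), Sb09g022360.1 (r = 0.99) and Sb09g027950.1 (r = 0.98), for which the files give no name. Sb01g050610.1 was at means of 20.7 and 74.0 RPKM in WW and DS plants of IS20351 and 23.3 and 44.9 RPKM in those of IS22330.

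Among the reductases upstream of LAR, Sb10g027560.1 was by its mean level the most abundant of the 3 DFR transcripts of the set. It was at 0.127, 3.42 and 0.792 RPKM in WW and 7.58, 4.18 and 16.4 RPKM in DS libraries of IS20351. The values of IS22330 were 0.160, 4.48 and 2.38 RPKM in WW and 10.04, 3.15 and 0.382 RPKM in DS libraries. The groups did not overlap in IS20351, although WW library b came close to DS library b, and in IS22330 they overlapped with or without DS library c. The log2 ratio of DS to WW was 2.66 (SE 1.34) in IS20351, 0.92 (SE 1.27) in IS22330 and 1.45 (SE 1.25) in IS22330 without DS library c. In IS22330 it turned to −0.48 without DS library a and was 1.88 without WW library b. Without IS20351 WW library b, the one high WW library, the ratio in IS20351 was 4.27.

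The DFR Sb02g028590.1 was low throughout. In IS20351 it was at 0.0804, 0.104 and 0.309 RPKM in WW and 1.09, 1.96 and 0.883 RPKM in DS libraries, with 3 to 12 and 33 to 72 reads. IS22330 showed 0.0270, 0.836 and 0.0522 RPKM in WW and 0.593, 0.161 and 0.107 RPKM in DS libraries. Its DS libraries were above the WW libraries of IS20351 without overlap, and the groups of IS22330 overlapped. Its log2 ratio was 2.82 (SE 1.16) in IS20351 and −0.12 (SE 1.11) in IS22330, or 0.23 (SE 1.21) without DS library c. The ratio in IS22330 turned on 1 library: without IS22330 WW library b, which held 91.3% of the summed WW level, it was 2.84.

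The remaining DFR, Sb03g028880.1, had 47, 4 and 14 reads in WW and 0, 7 and 1 reads in DS libraries of IS20351, or 0.675 ± 0.713 and 0.0850 ± 0.121 RPKM (SD, n = 3). It had 0 reads in the 6 libraries of IS22330. It was thus the one flavonoid transcript of the 6 whose level in IS20351 was lower on average in DS than in WW plants, with overlapping groups, a log2 ratio of −3.10 (SE 1.49), and −1.81 without WW library a, which held 47 of its 73 reads. In IS22330 no drought ratio can be given.

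CHS feeds the whole route, and the 2 CHS transcripts of the set were scarce. Other CHS genes were not looked up here, and only uniquely matching reads were counted. Sb02g009850.1, annotated as chalcone and stilbene synthase, was at 0.144, 0.617 and 0.749 RPKM in WW and 2.32, 2.49 and 1.41 RPKM in DS libraries of IS20351. IS22330 showed 0.902, 0.760 and 0.0281 RPKM in WW and 0.406, 0.927 and 0.203 RPKM in DS libraries. The DS libraries of IS20351 stood above all 9 others, and the IS22330 groups overlapped. The log2 ratio was 1.90 (SE 0.92) in IS20351 and −0.19 (SE 0.91) in IS22330, or 0.13 (SE 0.99) without DS library c. Sb05g020220.1, chalcone synthase 7, was at 0.0930 to 0.387 RPKM in WW and 0.221 to 0.555 RPKM in DS libraries of IS20351 and overlapped there, with a log2 ratio of 0.54 (SE 1.02). In IS22330 its WW libraries were at 3.24, 0.236 and 0.236 RPKM and its DS libraries at 0.146, 0.340 and 0.0727 RPKM. WW library a, with 133 of the 153 WW reads, set the ratio in IS22330, which was −2.69 (SE 1.07) with it and −0.35 without it; without DS library c it was −2.38 (SE 1.22).

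**Figure D2:**
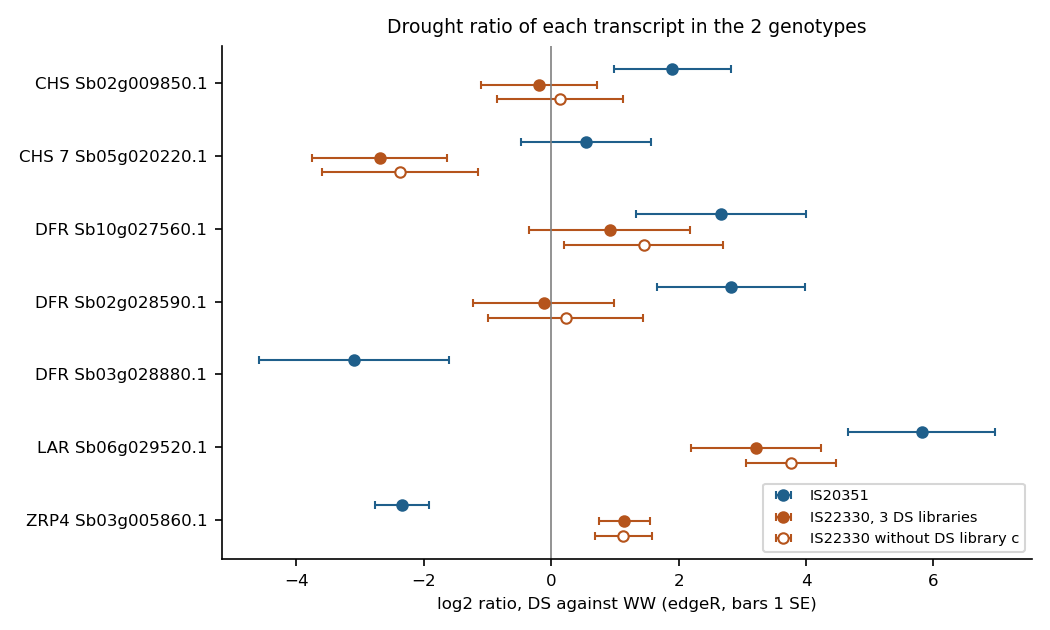
Log2 ratio of DS to WW plants from the edgeR fit, with bars of 1 SE, in IS20351 and in IS22330 with 3 DS libraries and without DS library c. LAR has the highest ratio in both genotypes, and ZRP4 lies at −2.35 in IS20351 and 1.15 in IS22330; Sb03g028880.1 has no reads and no ratio in IS22330.

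Counted over the 7 transcripts, the 3 DS libraries lay above the 3 WW libraries of IS20351 for 4 (LAR, Sb02g009850.1, Sb10g027560.1 and Sb02g028590.1), where 21.5% of all tested transcripts did so, and below them for 1 (ZRP4), where 15.2% did so. In IS22330 they lay above for 1 (ZRP4), where 4.93% of all tested did so, and below for 0, where 9.13% did so. The shares cover only transcripts that passed the filter, which 3 of the 7, Sb02g028590.1 among them, did not. Sb02g009850.1 passed through the DS libraries of IS20351 alone, so that its separation there was fixed by the filter. Drought contrasts chose the transcripts, and nothing is read from these counts. Summed over the 6 flavonoid transcripts, the level was 2.54 to 5.38 RPKM in WW and 51.0 to 59.4 RPKM in DS libraries of IS20351. In IS22330 it was 3.48 to 9.92 RPKM in WW libraries and 36.2, 26.8 and 1.49 RPKM in its 3 DS libraries in turn. LAR made up 67.6 to 83.0% of the sum in the DS libraries of IS20351 and 12.7 to 26.4% in its WW libraries.

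The flavonoid transcripts varied together within groups to different extents. With group means subtracted, r over the 12 libraries was 0.77 between LAR and Sb10g027560.1 and 0.66 between LAR and Sb02g028590.1, or 0.73 and 0.85 without DS library c. LAR and chalcone synthase 7 had an r of −0.10, and of −0.66 without that library. In WW plants of IS22330, library b had the highest level of LAR (3.60 RPKM) and of both DFR with reads (4.48 and 0.836 RPKM). These correlations come from libraries that share depth and plants, with few reads for several of the transcripts, and are descriptions.

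Whether the genotypes differed in the flavonoid transcripts apart from drought is a contrast that the drought contrasts behind the study's table did not use, although the transcripts were picked here with earlier results of these data known. It was tested as the difference of IS22330 and IS20351 averaged over WW and DS plants with the quasi-likelihood test of edgeR, adjusted by Benjamini-Hochberg over all tested transcripts. Among the 19021 tested, 5.73% were higher and 4.07% lower in IS22330 at an adjusted p under 0.05. LAR and Sb10g027560.1, which passed the filter through libraries of both genotypes, were not called. The log2 ratio was −0.09 with an SE of 0.70 for LAR (adjusted p = 0.969) and −0.22 with an SE of 0.90 for Sb10g027560.1 (adjusted p = 0.937). These averages join ratios of opposite sign, given here as a description with no test. LAR was at 1.21 (SE 1.01) in WW and −1.39 (SE 0.94) in DS plants, or −0.84 in DS plants without IS22330 DS library c. Sb10g027560.1 was at 0.65 (SE 1.28) in WW and −1.09 (SE 1.26) in DS plants. SEs of this size leave room for differences in either direction, and the values do not show that the genotypes were alike.

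In the fit with a minimum of 0.1 RPKM, 5.09% of 24324 transcripts were higher and 3.82% lower in IS22330. For chalcone synthase 7 (Sb05g020220.1) the log2 ratio was 0.59 with an SE of 0.73 (adjusted p = 0.732), and −0.59 without IS22330 WW library a. By water treatment it was 2.21 (SE 1.04) in WW plants, or −0.14 without that library, and −1.03 (SE 1.04) in DS plants. For Sb02g028590.1 the averaged ratio was −0.63 with an SE of 0.79 (adjusted p = 0.739). It ran from −2.11 without IS22330 WW library b to −0.21 without IS20351 WW library c. By water treatment the ratio of Sb02g028590.1 was 0.84 (SE 1.14) in WW and −2.10 (SE 1.12) in DS plants. These ratios by water treatment are descriptions with no test. The chalcone synthase Sb02g009850.1 was at −0.95 in this fit (adjusted p = 0.474), which it entered through libraries of both genotypes. Sb03g028880.1 had 73 reads in the 6 libraries of IS20351 and 0 in those of IS22330; since it met the minimum through IS20351 alone, its genotype difference is a description with no test. Against a floor of 3 reads over the 6 IS22330 libraries its level was at least 24.4-fold higher in IS20351, or at least 10.4-fold without IS20351 WW library a. Of all 27984 transcripts with reads per library, 0.85% had 0 reads in the 6 IS22330 libraries and reads in at least 5 of the 6 IS20351 libraries, as this DFR had. The fold bounds cover counting error only. Reads of both genotypes were aligned to the same reference genome, and whether sequence differences affected the matches was not tested.

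The locus of Sb10g027560.1, the most abundant of the 3 DFR transcripts of the set, has 2 further transcripts in the data. Their genotype difference too is a description with no test. This is since Sb10g027560.2 met the minimum of 0.1 RPKM, and Sb10g027560.3 that of 1 RPKM, through IS20351 alone. Sb10g027560.2 had 41, 34 and 44 reads in WW and 3, 33 and 22 reads in DS libraries of IS20351, and 0 reads in the 6 libraries of IS22330. Its level was at least 59.2-fold higher in IS20351 against a floor of 3 reads over the IS22330 libraries. The limits of the fold bounds given above hold here too. Sb10g027560.3 was at 0.512, 1.23 and 0.868 RPKM in WW and 0.917, 1.58 and 1.66 RPKM in DS libraries of IS20351, and at 0, 0.143 and 0.380 RPKM in WW and 0.245, 0.0490 and 0 RPKM in DS libraries of IS22330. Its log2 ratio between the genotypes was −3.06 (SE 0.80). Both transcripts had every IS20351 library above every IS22330 library, a separation in either direction that 6.28% of the tested transcripts had. That share covers only transcripts that passed the filter of 1 RPKM, which Sb10g027560.2 did not.

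Sb10g027560.1, by contrast, overlapped between the genotypes. It made up at least 86.2% of the summed level of the 3 transcripts in IS22330 libraries, and 7.64 to 88.4% in IS20351 libraries. In IS20351 the share was 88.4, 63.4 and 88.1% in DS and 7.64, 62.5 and 29.2% in WW libraries a, b and c. Some shares rest on few reads. The locus had 5 reads in WW library a and 12 in DS library c of IS22330, where the share was 100%. In IS20351 WW library a it had 66 reads. How a read that fits more than 1 transcript of a locus was assigned is not given in the sources used here, and the levels of the 3 transcripts are uncertain to that extent. These 2 transcripts were looked up because they share the locus and were not chosen by the drought contrasts.

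**Figure D3:**
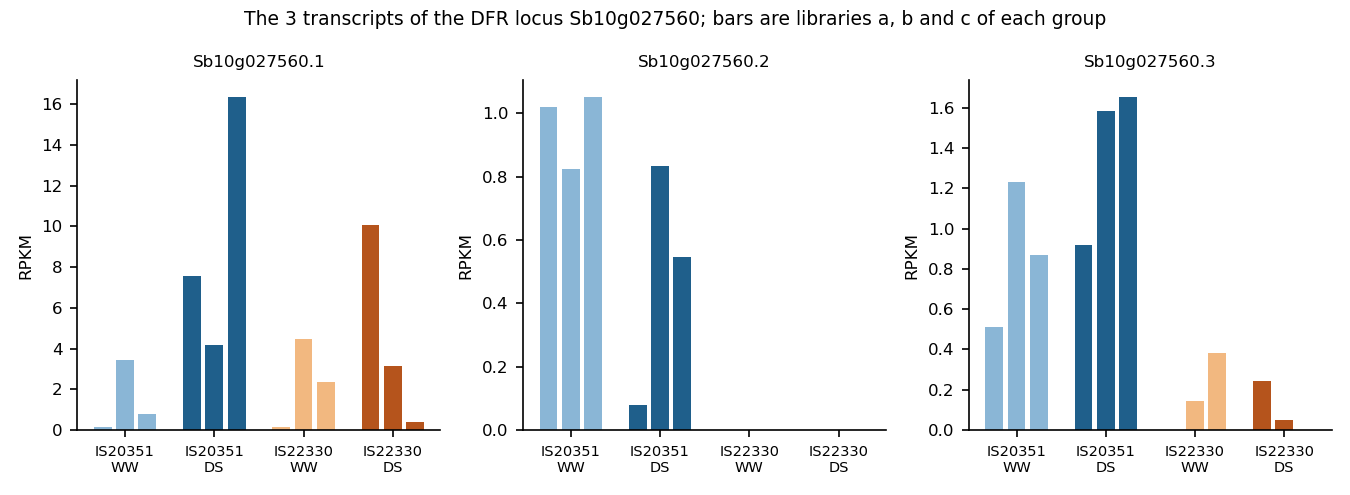
Level in RPKM (linear axes from 0) of the 3 transcripts of the DFR locus Sb10g027560, each bar 1 library, in the order a, b and c within a group. Sb10g027560.1 is found in both genotypes, Sb10g027560.2 has 0 reads in all 6 IS22330 libraries, and Sb10g027560.3 is at most 0.380 RPKM there against at least 0.512 RPKM in IS20351.

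The methyltransferase ZRP4 (Sb03g005860.1) went in opposite directions. In IS20351 it was at 8.57, 4.88 and 9.18 RPKM in WW and 0.912, 1.63 and 2.17 RPKM in DS libraries. The tolerant genotype had it at 5.08, 3.60 and 6.29 RPKM in WW and 7.85, 15.5 and 9.55 RPKM in DS libraries. DS libraries were all lower in the sensitive genotype and all higher in the tolerant one, without overlap in either, and WW libraries of the genotypes overlapped. IS22330 DS library c, at 9.55 RPKM, lay between DS libraries a and b. The order of group means was IS22330 DS (10.95 ± 3.99 RPKM, SD, n = 3), IS20351 WW (7.54 ± 2.33), IS22330 WW (4.99 ± 1.35) and IS20351 DS (1.57 ± 0.63). Neighbours overlapped except for the last pair.

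The log2 ratio of ZRP4 in DS against WW plants was −2.35 (SE 0.42) in IS20351 and 1.15 (SE 0.40) in IS22330, and 1.13 (SE 0.45) without DS library c. The difference of these responses was 3.49 (SE 0.58), and between 3.23 and 3.92 when 1 library was left out. In DS plants the log2 ratio of IS22330 to IS20351 was 2.82 (SE 0.43), in WW plants −0.67 (SE 0.40), and averaged over both 1.07 (SE 0.29). Earlier work on these values had named ZRP4 for its genotype difference, so these ratios too have no test. Few transcripts shared its pattern: 2 of those tested had an r above 0.9 with it over the 12 libraries and 1 had an r below −0.9. The closest were Sb07g014960.1 (r = 0.93), Sb05g024100.1 (r = 0.91) and Sb03g042380.1 (r = 0.89), which the files do not name. With group means subtracted, ZRP4 had an r of 0.02 with Sb03g027030.1, −0.20 with Sb03g027040.1 and 0.22 with the RuBisCO small chain, or 0.26, −0.20 and 0.61 without DS library c.

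The study's table holds 5 further transcripts named ZRP4, and for none of them were all DS libraries lower in IS20351 and higher in IS22330. Sb10g029620.1 was at 7.33 to 10.99 RPKM in WW and 1.72 to 2.25 RPKM in DS libraries of IS20351, without overlap, and at 1.39, 2.77 and 7.80 RPKM in the DS libraries of IS22330. Sb08g005125.1 was at 10.6 to 20.4 RPKM in WW and 1.06 to 3.80 RPKM in DS libraries of IS20351, and at 1.03, 4.15 and 8.75 RPKM in DS libraries of IS22330, where its WW libraries held 8.20 to 20.9 RPKM. Their log2 ratios were −2.33 (SE 0.65) and −2.90 (SE 0.75) in IS20351, and −0.46 (SE 0.62) and −1.34 (SE 0.70) in IS22330. Without DS library c the ratios in IS22330 were −1.61 and −2.41. Sb10g027360.1 had log2 ratios of −4.41 (SE 1.48) in IS20351 and −0.36 (SE 1.20) in IS22330, or −1.89 without DS library c.

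The remaining ZRP4-named transcripts had reads in IS22330 alone. Sb05g010100.1 had 0 reads in the 6 libraries of IS20351 and 16, 4 and 3 reads in WW and 4, 30 and 67 reads in DS libraries of IS22330. It met the minimum of 0.1 RPKM through IS22330 alone and has no test between the genotypes. Its level was at least 41.2-fold higher in IS22330 against a floor of 3 reads, or at least 22.7-fold without DS library c. These bounds too cover counting error only, and effects of sequence differences on matches to the reference were not tested. Sb05g026710.1 was at 7.50 RPKM in IS22330 DS library c, 0.0561 RPKM in DS library b and 0.817 RPKM in WW library b, and at 0 in the other 9 libraries.

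**Figure D4:**
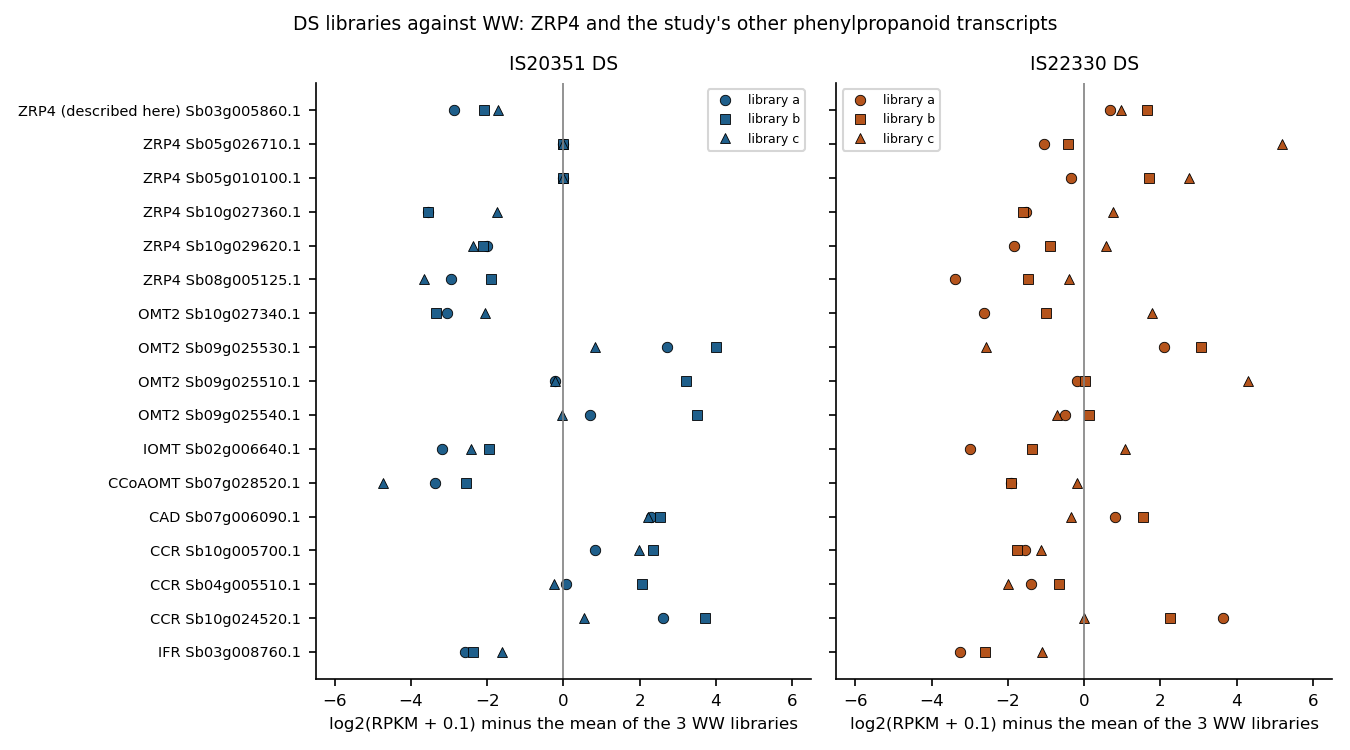
Level of each DS library as log2(RPKM + 0.1) minus the mean of the 3 WW libraries of its genotype, for ZRP4 (Sb03g005860.1) and 16 other phenylpropanoid and flavonoid transcripts of the study's table (OMT2, O-methyltransferase family 2; IOMT, isoflavone O-methyltransferase; CCoAOMT, caffeoyl-CoA O-methyltransferase; CAD, cinnamyl alcohol dehydrogenase; CCR, cinnamoyl-CoA reductase; IFR, isoflavone reductase). ZRP4 is at −2.86 to −1.70 in IS20351 and 0.68 to 1.65 in IS22330, and in IS22330 library c (triangles) often lies apart from a and b.

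Of the 16 other phenylpropanoid and flavonoid transcripts in that table, 13 passed the filter. The study also chose them on these samples, so their drought counts are no independent evidence of a direction. In IS20351 1 was higher and 1 lower in DS plants by edgeR at an adjusted p under 0.05, where 1.3% and 2.42% of all tested were. They were cinnamyl alcohol dehydrogenase 9 (Sb07g006090.1), which makes lignin precursors, at 2.17 on the log2 scale with an SE of 0.40 (adjusted p = 0.0398), and a caffeoyl-CoA methyltransferase (Sb07g028520.1), which methylates such precursors, at −4.13 with an SE of 0.95 (adjusted p = 0.0435). Both calls were lost without any 1 of the 6 IS20351 libraries and without IS22330 WW library a or c, and the methyltransferase also without IS22330 WW library b, with adjusted p up to 0.135 for the dehydrogenase and 0.148 for the methyltransferase. Of the 13 ratios 6 were positive and 7 negative. Their median was −2.28, the value of isoflavone reductase, against 0.03 over all tested. In the fit without IS22330 DS library c, 1 was higher and 6 lower in IS20351, where 6.17% and 9.26% of all tested were, and ZRP4-named Sb10g029620.1 (adjusted p = 0.00876) and Sb08g005125.1 (adjusted p = 0.0122) were among the lower ones.

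In IS22330 0 of the 13 passed in either direction, as did 0% of all tested in each direction; 2093 transcripts had an unadjusted p under 0.05 by edgeR, and DESeq2 and limma called 197 and 0 of all tested. Without DS library c 1 of the 13 was lower, isoflavone reductase (Sb03g008760.1, log2 ratio −3.02, adjusted p = 0.0138), and 0 higher, where 3.02% and 1.18% of all tested were. With all 3 DS libraries its log2 ratio was −1.94 (SE 0.59, edgeR adjusted p = 0.399). Its DS libraries were at 14.9, 23.4 and 66.9 RPKM and its WW libraries at 121 to 194 RPKM. Between the genotypes 1 of the 13 was higher in IS22330 and 0 lower. This was Sb09g025510.1 of O-methyltransferase family 2, which passed the filter through IS22330 alone, so that nothing is read from the count. It was at 0.391, 45.5 and 0.243 RPKM in WW and 1.61, 1.92 and 38.6 RPKM in DS libraries of IS22330, and at 0.0554 and 0.983 RPKM in the 2 IS20351 libraries that had reads. Its level in IS22330 thus rested on 1 library in each water treatment.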

How the data were processed

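Leaf meristem RNA of 12 samples was sequenced by the study, 3 biological replicates for each of 4 groups. According to the study's methods, the authors cleaned the reads, aligned them with SOAPaligner/SOAP2 to the Ensembl Plants sorghum genome and kept unique matches per transcript. The expected counts and the RPKM deposited by the authors are means over the 3 libraries of a group, in which a library without reads was entered as 0.001. Whole reads per library were solved from both means for 27984 of 27989 transcripts; 5 without a single solution were left out. On simulated reads 110311 of 110311 sets came back exactly. The check left out the transcripts with the most reads in a group, among them the RuBisCO small chain. Library totals were 26398759 to 28680141.

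Reads were tested in R 4.3.3 with the edgeR 4.0.16 quasi-likelihood test on the group means of all 12 libraries (TMM, prior count 0.125, at least 1 RPKM in at least 3 libraries, common biological coefficient of variation 0.464). Adjusted p values are Benjamini-Hochberg over all tested, and calls need one under 0.05. In simulated counts of the IS20351 drought comparison, the share of 50 changed transcripts found was checked at 4 sizes. Alternatives used limma 3.58.1, DESeq2 1.42.0, other scalings, filters, thresholds and prior counts, and left out each library. Tables were made with Python 3.11.15, pandas 2.3.3 and numpy 2.4.6. Gene names are those of the study's table; all 7 transcripts and the 16 other phenylpropanoid and flavonoid transcripts of that table are named, with the other transcripts of the loci and, for likeness, the 3 with the highest r. The transcripts and lists were chosen with earlier results of these data known. Promoters, proteins, coordinates and meristem markers were not used here, since the gene table at hand does not pair these IDs with names.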

Additional observations from a re-analysis of the deposited data

Results flagged for a closer look

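ZRP4 (Sb03g005860.1) is listed because every DS library of IS20351 lay below the WW mean of its genotype (−2.86, −2.09 and −1.70 on the scale of log2(RPKM + 0.1)) and every DS library of IS22330 lay above it (0.68, 1.65 and 0.96). The difference of the 2 responses was 3.494 (log2, SE 0.58). No test of it is read here, because the drought contrasts had chosen the transcript. Over all tested transcripts, edgeR and limma called 0 and DESeq2 46 for this difference at an adjusted p under 0.05.

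A cinnamoyl-CoA reductase, Sb10g005700.1, had the opposite pattern, with every DS library above the WW mean in IS20351 (0.82, 2.34 and 1.98) and below it in IS22330 (−1.55, −1.77 and −1.12). IS22330's response minus that of IS20351 came to −4.346 (log2, SE 1.31). With an edgeR adjusted p of 0.817 over all tested transcripts, between 0.579 and 1.00 with 1 library left out, it did not pass, and it too comes from the table the study chose on these samples. Its levels were low, at 0.142 to 0.432 RPKM in WW and 0.568 to 1.82 RPKM in DS libraries of IS20351, and in IS22330 the WW libraries, at 0.0922 to 2.42 RPKM, overlapped with the DS libraries.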

How the results depend on the processing

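The count of the 16 pathway transcripts called for drought in IS20351 (2) was 0 at an adjusted p of at most 0.001 with a log2 ratio of at least 2, 8 with DESeq2, 4 with limma at either pseudocount, 6 when only the compared groups were fitted, 1 at an RPKM minimum of 0.1, and 0 to 7 when 1 library was left out. Over the whole table (709) it was 0, 3103 with DESeq2, 1843 with the compared groups only, 364 at 0.1 RPKM, 444 with no filter, and 0 to 2918 with 1 library left out; 2918 was without IS22330 DS library c, and 0 without any IS20351 library or IS22330 WW library a or c. In IS22330 (0 and 0) the pathway count was 0 to 1 and the whole-table count 0 to 795 with 1 library left out, the upper values without DS library c, and 197 over the whole table with DESeq2. Between the genotypes the pathway count (1) was 0 at the stricter thresholds and with limma, 2 at 0.1 RPKM or with no filter, and 0 to 2 with 1 library left out; the whole-table count (1863) was 486 at the stricter thresholds. The genotype ratio changed sign with 1 library left out for 3 flavonoid transcripts that were not called: it ran from −0.59 to 0.85 for Sb05g020220.1, from −0.93 to 0.58 for Sb10g027560.1 and from −0.79 to 0.19 for Sb06g029520.1. Of the 522 alternatives for log2 ratios, 476 stayed on their side of the threshold or within 1 SD. Of the rest 20 moved, 17 became weaker and 9 reversed. The causes were not tested, apart from the smaller samples and tested sets that some alternatives imply. By Spearman's rho only Sb01g050610.1 stayed among the 3 most like LAR, and none stayed so for ZRP4. Low reads per library of both CHS and of the DFR Sb02g028590.1 and Sb03g028880.1 limit the precision of their ratios.

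No paired analysis was possible because the deposited means carry no replicate numbers. Protein identity between the enzymes was not run, since no sequences were at hand.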
